A study of Mus musculus with 13 samples.

Results

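The 34 genes described here encode the enzymes, carriers and import factors that break down fatty acids in mitochondria and peroxisomes. They were taken by symbol from a fixed list, not by their values, and all 34 were found among the 28183 genes of the kidney table, while 7 of them were among the 2016 genes of the cell table. By their main role, 4 belong to the carnitine shuttle, 9 to the mitochondrial oxidation spiral, 4 are auxiliary enzymes for unsaturated chains, 3 form the electron transfer flavoprotein system, 10 act in peroxisomal oxidation and 4 serve peroxisome import and division. Their products work in the mitochondrion for 17 genes, in the peroxisome for 15 and in both for Crat and Eci2.

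RNA-seq was run on mouse kidneys of 4 groups with 2 libraries each, all on the C57BL/6 strain. Pkd1 knockouts carried floxed Pkd1 (Pkd1f/f) with the KSP/Cre transgene, driven by the promoter of kidney-specific cadherin and active in tubule epithelium, and were taken with Cre-free Pkd1f/f controls at postnatal day 10. Pkd2 knockouts carried floxed Pkd2 (Pkd2f/f) with Pkhd1/Cre, a driver of collecting duct epithelium, and were taken with Cre-free Pkd2f/f controls at postnatal day 20. The deletion is therefore limited to the cells in which each Cre is active, and whole kidneys also hold cells without it. Although the Pkd2 knockouts are titled "(WT)", their genotype and description name the knockout, which was followed. The mIMCD-3 line, a mouse line from the inner medullary collecting duct, received 10 nM of either a control gapmer (2 libraries) or one directed at Hoxb3os, a long noncoding RNA (3 libraries), and was harvested at 48 h. A gapmer is an antisense oligonucleotide that directs RNase H to its target RNA. The series compares cystic with control kidneys and asks what follows when Hoxb3os is targeted in cells.

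Long-chain fatty acids enter mitochondria as carnitine esters and are shortened by repeated rounds of dehydrogenation, hydration, a further dehydrogenation and thiolysis, whose electrons reach the respiratory chain in part through the electron transfer flavoprotein. Peroxisomes shorten very long and branched chains and hand the products on, and their enzymes are made in the cytosol and brought in by PEX receptors. In the kidney, proximal tubule cells are rich in mitochondria and peroxisomes and draw on fatty acids as a main fuel, and many of these genes are known targets of the nuclear receptor PPAR-alpha with its coactivator PGC-1-alpha.

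Reads behind the kidney values came to between 30.7 and 94.4 M per library, and those behind the listed cell genes to between 7.47 and 14.4 M, part of each cell library and not its depth. Mitochondrially encoded transcripts took 22.05% to 41.4% of the kidney values, and the summed Y-linked genes ranged from 0.0221 to 183, so sex was not balanced between groups. Small structural RNA took 6.42% of the values in Pkd2 knockout replicate 2, 19.8% to 23.7% in the other Pkd2 model libraries and 13.4% to 29.2% in those of the Pkd1 model, and its part in the results was not tested. On the first principal component of the kidney libraries, with 51.8% of the variance, Pkd2 knockout replicate 1 lay at -0.765 and replicate 2 at 33.4, a wider gap than between the replicates of each other group. Results on that model are therefore also given without either library. The labels do not state whether replicates were separate animals or cultures. The p-values then measure only how far these samples spread, which may be technical. A value is the scaled reads that the authors deposited for a gene. Each fold change is in log2 units of value + 1 and is given ± SE with 2 libraries per kidney group, a scale that understates low genes. A gene was called when limma gave it an adjusted p (Benjamini-Hochberg) below 0.05. All 34 genes passed the filter on low values that left 14637 kidney genes in the test.

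Levels between genes can be compared per kb of exon, with the length taken over all annotated exons of a gene together. In the day 20 controls of the Pkd2 model, Hadhb stood highest at 123 per kb, followed by Scp2 at 107, Acadm at 82.6 and Etfb at 68.9. Pex7 at 2.14 and Pex11a at 3.53 per kb stood lowest. In the day 10 controls of the Pkd1 model, Scp2 led at 79.4 per kb, with Hadhb at 63.2 and Acadm at 54.3, and Pex11a at 2.25 and Pex7 at 1.47 again stood last. On this per kb scale, the abundant end of the family held spiral enzymes, Scp2 of the peroxisomal oxidation genes and a flavoprotein subunit. The scarce end held an import receptor and a division factor.

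**Figure D1:**
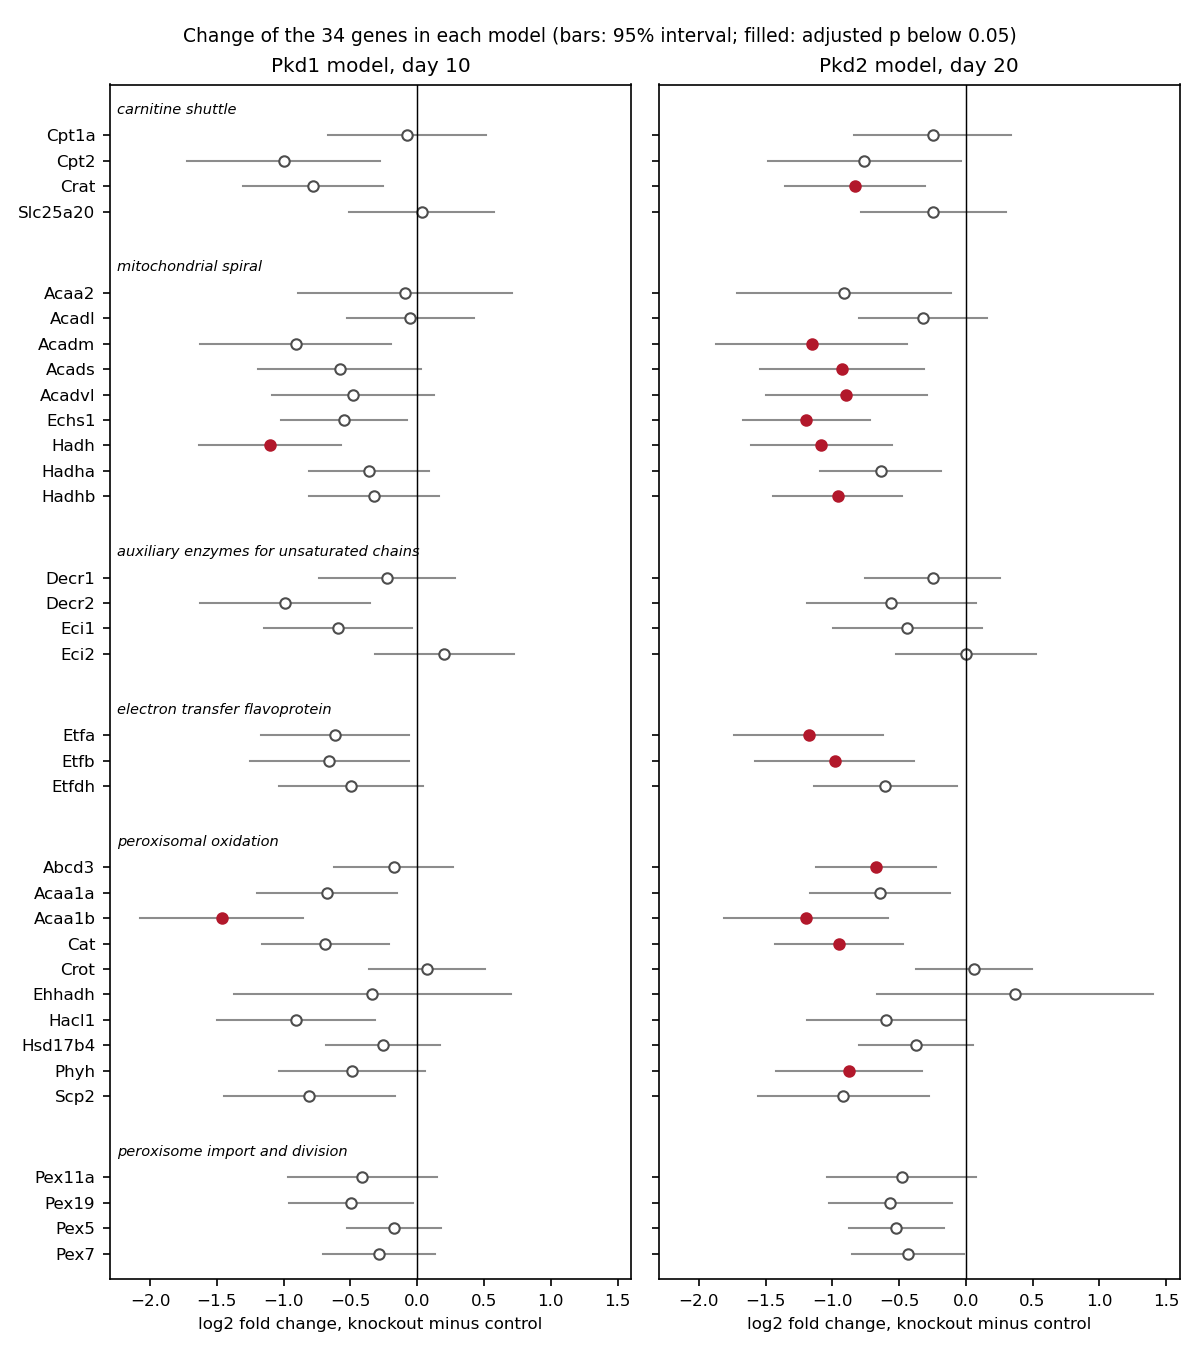
Log2 fold change (knockout minus control, x axis) of each of the 34 genes (y axis, grouped by role) in the Pkd1 model at day 10 and the Pkd2 model at day 20. Bars are 95% intervals, and filled points passed an adjusted p below 0.05: Hadh and Acaa1b in the Pkd1 model and 13 genes in the Pkd2 model, all to the left of 0.

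In the Pkd1 knockout kidneys, Acaa1b and Hadh fell and 32 genes did not pass the test. Genes called lower made up 5.48% of all genes tested, and the 2 members come to 5.88% of the 34, a share near that background. None of the 34 was called higher, against 5.11% of all genes. The fold change was below 0 for 31 of 34, and the median was -0.49, beside -0.002 over all genes tested. In 26 of 34 genes, both knockout libraries lay below both controls, which held for 29.2% of all genes tested. Each call was lost in some fits without 1 library, while the fold changes stayed below 0. Over the 14 alternatives they ran from -1.642 to -1.41 for Acaa1b and from -1.253 to -1.025 for Hadh. Leaving out control replicate 1 or 2 or knockout replicate 1 left none of the 34 called, with 0.765%, 1.15% and 1.53% of all genes called lower. Without knockout replicate 2, Acaa1b was called, Hadh was not (limma, Benjamini-Hochberg adjusted p = 0.0650) and Hacl1 was, with 2.88% of all genes called lower. In whole kidneys, fewer cells of a type and less RNA per cell cannot be told apart, here and in every kidney comparison below.

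In the Pkd2 knockout kidneys, 13 of 34 genes fell, where 8.13% of all genes tested were called lower. None rose, where 9.54% of all genes were called higher. The 13 were 6 spiral enzymes (Echs1, Hadh, Hadhb, Acadm, Acads and Acadvl), 2 flavoprotein subunits (Etfa and Etfb), 4 peroxisomal oxidation genes (Cat, Acaa1b, Phyh and Abcd3) and Crat of the carnitine shuttle. The fold change was below 0 for 31 of 34 genes, with a median of -0.64 beside -0.008 over all genes. Both knockout libraries lay below both controls in 27 of 34 genes (30.9% of all genes tested) and above them in 1, Crot (31.9% of all genes). Just outside the threshold lay Pex5 (adjusted p = 0.0504 by limma with Benjamini-Hochberg adjustment), Scp2 (0.0556) and Hadha (0.0568), and just inside it Acadvl (0.04995) and Abcd3 (0.0478).

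The size of the Pkd2 count depended on single libraries and on the scaling. The median was -0.42 without knockout replicate 2 and -0.89 without knockout replicate 1. Summed Y-linked values were 169 in knockout replicate 1 and 0.0462 in replicate 2, beside 0.104 and 0.0221 in the controls. Replicate 2 thus resembled the controls in sex and replicate 1 did not. The gap on the first principal component does not tell which of the 2 knockout libraries is unusual. Leaving out control replicate 1 or 2 left 1 and 0 called, beside 2.06% and 1.291% of all genes, with medians of -0.73 and -0.58. When values were rescaled on a total without mitochondrially encoded genes, none of the 34 was called and the median was -0.33, while the median of all genes moved to 0.26, so that the members stood at -0.59 relative to it. That scaling called 295 genes lower and 1129 higher in all, in place of 1190 and 1397.

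**Figure D2:**
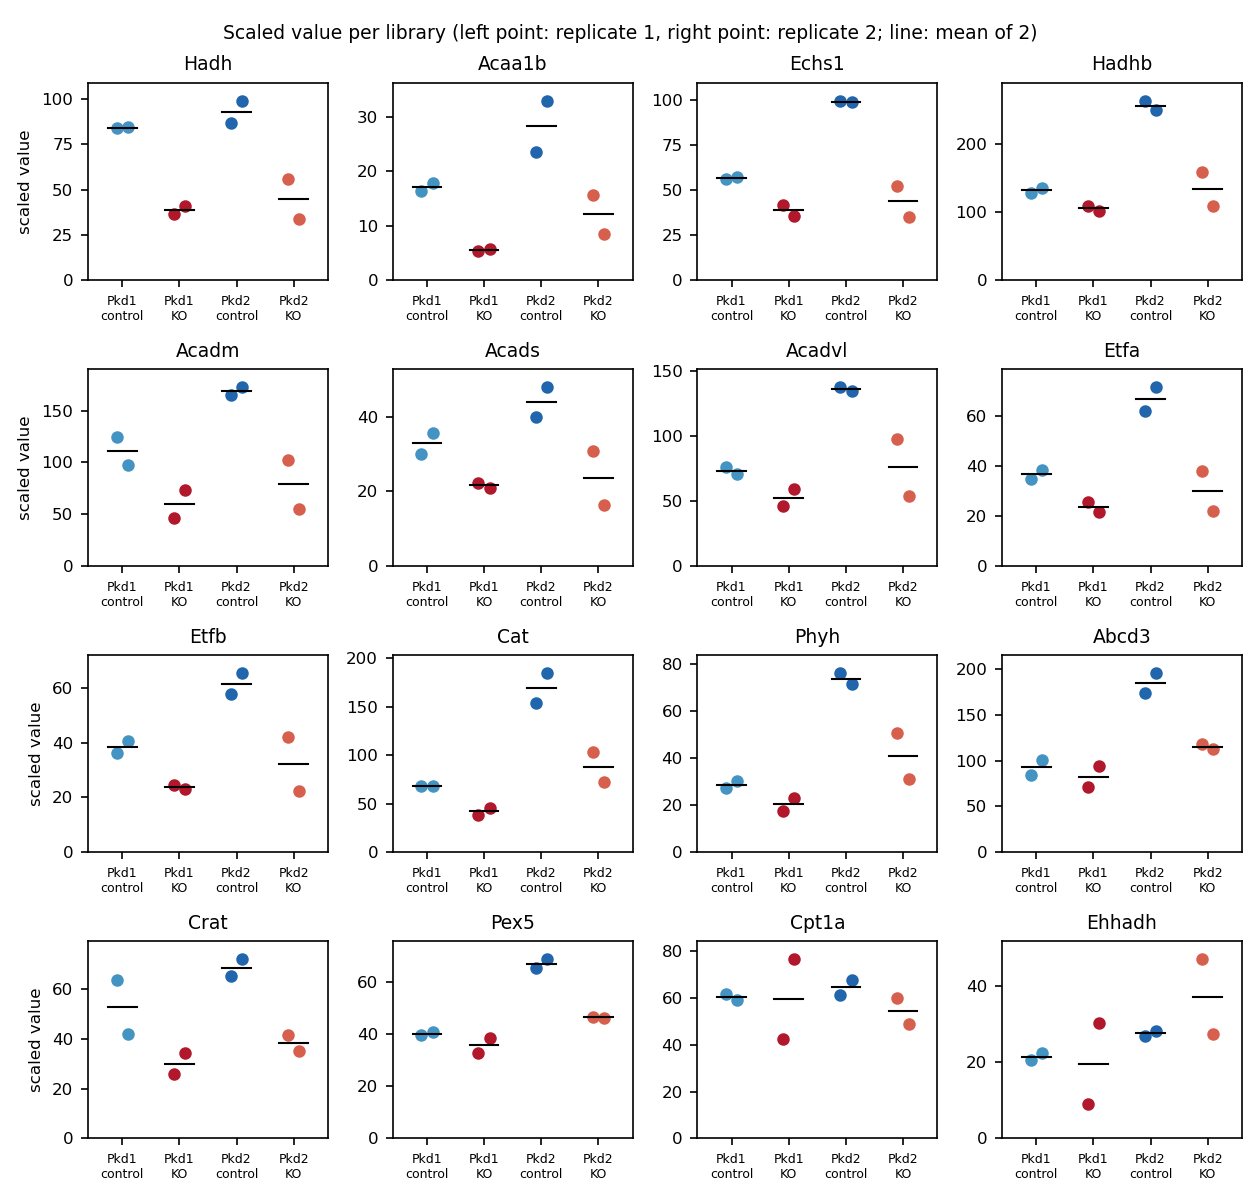
Scaled value (y axis, from 0) of 16 of the genes in each kidney library, with replicate 1 as the left and replicate 2 as the right point of a group and the mean of 2 as a line. Knockout libraries of Hadh, Acaa1b, Echs1 and Cat lie below the controls of their model, while the knockout libraries of Ehhadh and Cpt1a spread widely in the Pkd1 model.

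The carnitine shuttle was uneven. Cpt1a, the outer membrane transferase that controls entry of long chains, was at 61.9 and 59.0 in Pkd1 control kidneys and 42.6 and 76.6 in Pkd1 knockout kidneys, and at 61.4 and 67.8 in Pkd2 control kidneys and 60.1 and 48.7 in Pkd2 knockout kidneys. The Pkd1 knockouts lay on either side of their controls, and neither change was called (-0.08 ± 0.26 and -0.25 ± 0.26). Slc25a20, the carrier that passes acylcarnitines across the inner membrane, was at 16.9 and 19.9 against 17.8 and 19.8 in the Pkd1 model and at 18.5 and 18.8 against 20.6 and 11.8 in the Pkd2 model, controls first. Its groups overlapped in both models, with fold changes of 0.03 ± 0.24 and -0.24 ± 0.24. Cpt2, which rebuilds the CoA ester inside, had the most negative fold change of the shuttle in the Pkd1 model at -1.0 ± 0.32, with no call (limma adjusted p = 0.0820). Crat, which moves acetyl groups between CoA and carnitine, was at 65.4 and 72.1 in Pkd2 control kidneys and 41.6 and 35.2 in the knockouts, a fall of -0.83 ± 0.23 (limma, Benjamini-Hochberg adjusted p = 0.0401). At day 10 it stood at 63.6 and 42.2 in controls and 25.9 and 34.3 in knockouts (-0.78 ± 0.23, limma adjusted p = 0.0665), with the control libraries farther apart than the knockouts.

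Among the acyl-CoA dehydrogenases, which open the spiral for chains of different length, Acadm, the medium-chain enzyme, was at 165 and 173 in Pkd2 control kidneys and 102 and 55.4 in the knockouts. It fell by 1.16 on the log2 scale (SE 0.32, limma Benjamini-Hochberg adjusted p = 0.0369). The Pkd1 groups were at 125 and 97.5 in controls and 46.3 and 73.4 in knockouts (-0.91 ± 0.32, limma adjusted p = 0.103). Acadvl, the very long-chain enzyme, was at 138 and 134 in Pkd2 control kidneys and 97.7 and 54.0 in the knockouts (-0.89 ± 0.27). Acads, the short-chain enzyme, was at 39.8 and 47.9 against 30.9 and 16.3 in the same groups (-0.93 ± 0.27, limma adjusted p = 0.0455). Every one of these knockout libraries lay below its controls, with replicate 2 the lower of the pair in the Pkd2 model. Acadl, the long-chain enzyme, had the smallest change of the 4: it was at 32.5 and 36.0 against 28.7 and 37.9 in the Pkd1 model and at 45.4 and 54.1 against 45.8 and 34.01 in the Pkd2 model, where the groups overlapped (-0.05 ± 0.21 and -0.32 ± 0.21).

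Next in the spiral come the hydratase and 3-hydroxyacyl-CoA dehydrogenase steps. Hadh, the 3-hydroxyacyl-CoA dehydrogenase (ENSMUSG00000027984.8, chr3:131233419-131272101 on the minus strand of GRCm38), was at 84.1 and 84.5 in Pkd1 control kidneys and 36.8 and 40.9 in Pkd1 knockout kidneys. In the Pkd2 model it was at 87.2 and 99.1 in controls and 56.0 and 33.6 in knockouts. The controls of both models were close, and every knockout library lay below its controls: the fold changes were -1.10 ± 0.23 and -1.08 ± 0.23, or 2.14 and 2.12 times lower on the scale of value + 1 (limma, Benjamini-Hochberg adjusted p = 0.0218 and 0.0159). Echs1, the short-chain enoyl-CoA hydratase (ENSMUSG00000025465.10, chr7:140105710-140116476, minus strand), was at 99.7 and 99.1 in Pkd2 control kidneys and 52.5 and 35.0 in the knockouts. It had the smallest adjusted p of the family there (-1.19 ± 0.21, limma, Benjamini-Hochberg adjusted p = 0.00681) and remained called without knockout replicate 2 (-0.91, limma adjusted p = 0.0238). At day 10 Echs1 was at 56.4 and 57.4 against 42.0 and 35.5, with no overlap and no call (-0.55 ± 0.21, limma adjusted p = 0.130). Acaa2, the thiolase that closes the spiral, was at -0.09 ± 0.35 in the Pkd1 and -0.91 ± 0.35 in the Pkd2 model, neither called.

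Hadha and Hadhb encode the alpha and beta subunits of the mitochondrial trifunctional protein, which carries out the last steps on long chains, and their genes lie head to head on chromosome 5. GENCODE puts the end of Hadha (minus strand) and the start of Hadhb (plus strand) 85 bases apart, at chr5:30155163-30155247 of GRCm38, and the RefSeq promoter windows of the pair share 228 bases. The stretch between the genes is shown because a single short region borders both starts. It reads as follows on the plus strand, from the Hadha to the Hadhb side, with matches to the GC box GGGCGG in capitals.
Hadha-Hadhb: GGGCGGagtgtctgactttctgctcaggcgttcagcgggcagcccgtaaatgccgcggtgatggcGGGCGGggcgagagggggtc
It holds 2 GC boxes, and 69.4% of its bases are G or C. Of the 29 members with a promoter in the RefSeq table (build GRCm38.p6, 250 bases before to 50 after the start), 23 hold GGGCGG on either strand (79.3%), beside 38.2% of all genes in that table, a count added after the data were seen. Hadhb was at 263 and 249 in Pkd2 control kidneys and 159 and 108 in the knockouts, a fall of -0.96 ± 0.21 (limma, Benjamini-Hochberg adjusted p = 0.0178), and Hadha was at 174 and 184 against 124 and 106 (-0.64 ± 0.20, adjusted p = 0.0568). Both genes were lower in both knockout libraries, and Hadhb alone passed the test. Their fold changes in the Pkd1 model were -0.32 ± 0.21 for Hadhb and -0.36 ± 0.20 for Hadha, and neither was called.

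The auxiliary enzymes, which reposition or reduce double bonds of unsaturated chains, gave no call in either model, with medians of -0.41 (Pkd1) and -0.34 (Pkd2). Decr2, the peroxisomal dienoyl-CoA reductase, came nearest in the Pkd1 model, at 13.5 and 14.5 in controls and 5.38 and 7.96 in knockouts (-0.99 ± 0.28, limma, Benjamini-Hochberg adjusted p = 0.0565). Its mitochondrial counterpart Decr1 had -0.22 ± 0.22 there and -0.25 ± 0.22 in the Pkd2 model. The isomerase Eci1 had -0.59 ± 0.25 and -0.44 ± 0.25. Eci2, a related isomerase, was at 71.3 and 71.2 in Pkd1 control kidneys and 69.3 and 97.6 in the knockouts, on either side of the controls, and its fold changes were 0.20 ± 0.23 and 0.00 ± 0.23.

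The electron transfer flavoprotein takes electrons from all acyl-CoA dehydrogenases. Its alpha subunit Etfa was at 62.3 and 71.7 in Pkd2 control kidneys and 38.0 and 22.1 in the knockouts (-1.18 ± 0.24, limma, Benjamini-Hochberg adjusted p = 0.0137), and it too remained called without knockout replicate 2 (-0.80, limma adjusted p = 0.0467). The beta subunit Etfb was at 57.7 and 65.4 against 42.0 and 22.3 (-0.98 ± 0.26, limma adjusted p = 0.0342). At day 10, Etfa was at 34.9 and 38.5 against 25.7 and 21.7 and Etfb at 36.1 and 40.5 against 24.5 and 23.2. These groups did not overlap, and the changes of -0.61 ± 0.24 and -0.66 ± 0.26 were not called. Etfdh, the oxidoreductase that passes the electrons on to ubiquinone, had -0.50 ± 0.24 and -0.60 ± 0.24, neither called.

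In peroxisomal oxidation, the thiolase gene Acaa1b (ENSMUSG00000010651.4, chr9:119148023-119157093, minus strand of GRCm38) had the most negative fold change of the 34 in both models, in the Pkd2 model just past Echs1. It was at 16.4 and 17.8 in Pkd1 control kidneys and 5.38 and 5.74 in the knockouts, and at 23.5 and 32.9 in Pkd2 control kidneys and 15.6 and 8.49 in the knockouts. All 4 knockout libraries lay below their controls, by -1.47 ± 0.27 in the Pkd1 and -1.20 ± 0.27 in the Pkd2 model (limma, Benjamini-Hochberg adjusted p = 0.0121 and 0.0186). Its paralog Acaa1a on the same chromosome had -0.67 ± 0.23 (limma adjusted p = 0.1004) and -0.64 ± 0.23 (limma adjusted p = 0.0893). Of the 50-base stretches in the protein-coding transcripts of Acaa1b, 35.6% also occur in Acaa1a, so how the counting divided shared reads bears on both values.

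Cat, the catalase that destroys the hydrogen peroxide made by peroxisomal oxidases, was at 154 and 185 in Pkd2 control kidneys and 104 and 72.9 in the knockouts. The fall was -0.95 ± 0.21 (limma, Benjamini-Hochberg adjusted p = 0.0174). Catalase mRNA at day 10 was at 68.1 and 68.7 against 38.7 and 45.7 (-0.69 ± 0.21, limma adjusted p = 0.0727), again with no overlap. Phyh, which starts alpha-oxidation of phytanic acid, was at 76.1 and 71.4 in Pkd2 control kidneys and 50.8 and 31.0 in the knockouts (-0.88 ± 0.24, limma adjusted p = 0.0376), and at 27.3 and 30.1 against 17.6 and 23.1 in the Pkd1 model (-0.49 ± 0.24, limma adjusted p = 0.230). Hacl1, the lyase that follows it, had -0.91 ± 0.26 and -0.60 ± 0.26, neither called. Abcd3, the membrane transporter of acyl-CoA into peroxisomes, was at 173 and 195 against 118 and 112 in the Pkd2 model (-0.67 ± 0.20, limma adjusted p = 0.0478) and at 84.7 and 101 against 71.0 and 93.8 in the Pkd1 model. Its Pkd1 groups overlapped (-0.18 ± 0.20).

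Scp2, the sterol carrier and branched-chain thiolase, had -0.81 ± 0.28 and -0.92 ± 0.28, and Hsd17b4, the D-bifunctional enzyme, -0.26 ± 0.19 and -0.37 ± 0.19, none of them called. Crot, which makes medium-chain acylcarnitines for export, stayed near its controls at 0.07 ± 0.19 and 0.06 ± 0.19. Ehhadh, the L-bifunctional enzyme and a known PPAR-alpha target, differed most between replicates. It was at 20.5 and 22.3 in Pkd1 control kidneys, 9.05 and 30.3 in Pkd1 knockout kidneys, 26.8 and 28.3 in Pkd2 control kidneys and 47.1 and 27.3 in Pkd2 knockout kidneys. The controls of each model were close and the knockouts far apart, and the fold changes of -0.34 ± 0.46 and 0.37 ± 0.46 had the widest intervals of the family.

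Of the import and division genes, none was called. Pex5, the receptor for most matrix enzymes, was at 65.4 and 68.7 in Pkd2 control kidneys and 46.7 and 46.1 in the knockouts (-0.52 ± 0.16), and at 39.8 and 40.6 against 32.9 and 38.5 in the Pkd1 model (-0.17 ± 0.16). Pex7, the receptor for the other import signal, had -0.29 ± 0.19 in the Pkd1 and -0.43 ± 0.19 in the Pkd2 model, and Pex19, which brings in membrane proteins, -0.50 ± 0.20 and -0.56 ± 0.20. Pex11a, which acts in peroxisome proliferation, had -0.41 ± 0.25 and -0.48 ± 0.25. The median of these 4 was -0.35 (Pkd1) and -0.50 (Pkd2), against -0.93 for the 9 spiral enzymes and -0.98 for the 3 flavoprotein genes in the Pkd2 model. In the Pkd1 model the spiral and the flavoprotein genes had medians of -0.48 and -0.61, and the peroxisomal oxidation genes -0.58. By compartment, mitochondrial members had medians of -0.50 (Pkd1) and -0.89 (Pkd2) and peroxisomal members of -0.49 and -0.56, a description without a test, since genes are not replicates.

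Between the models, Acaa1b and Hadh were called lower in both, which is 2 of the 2 Pkd1 calls and 2 of the 13 Pkd2 calls, or 5.88% of the 34 beside 3.04% of all genes tested. The fold change was below 0 in both models for 30 of 34 genes, beside 39.2% of all genes. The difference of the effects (Pkd1 minus Pkd2) was called for none of the 34, with 0.00683% of all genes called lower (1 gene) and none called higher. None of the 34 had an unadjusted p below 0.05 in limma either, and DESeq2 and edgeR, run for all 34, called no member. The smallest p among members were those of Echs1, at 0.65 ± 0.29 with a 95% interval from -0.02 to 1.31, and Hadhb, at 0.64 ± 0.30 with an interval from -0.05 to 1.32 (limma, Benjamini-Hochberg adjusted p = 0.640 and 0.663). These intervals reach from no difference to a Pkd2 fall larger by more than 1 on the log2 scale.

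**Figure D3:**
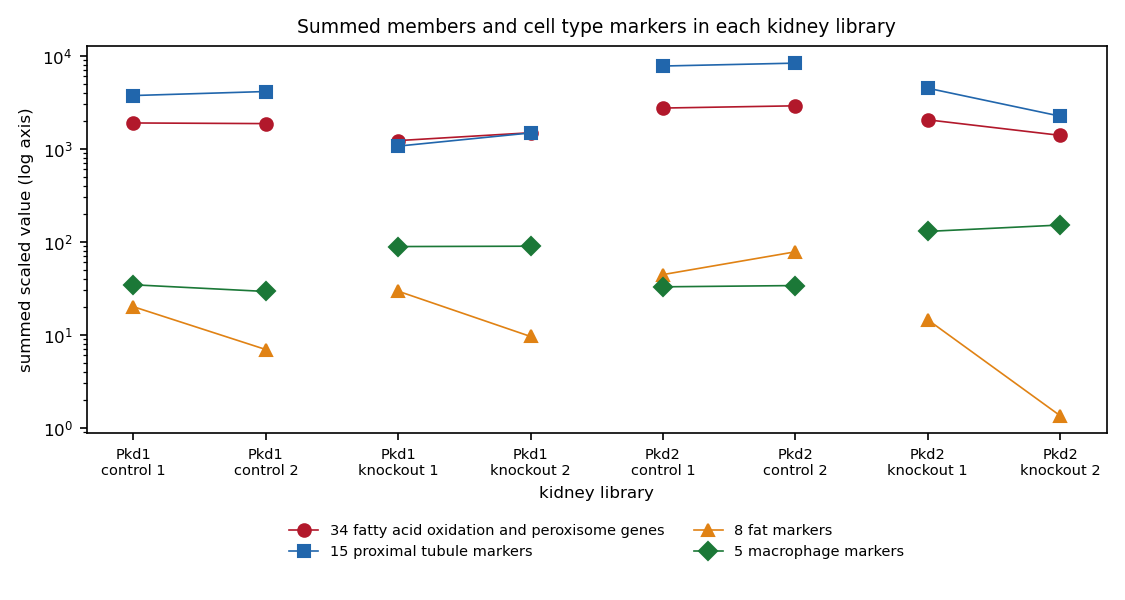
Summed scaled value (y axis, log axis) of the 34 genes and of 3 marker lists in each kidney library (x axis), with lines joining the replicates of a group. The members' sum lies between 1222 and 1485 in Pkd1 knockout kidneys and is 2045 and 1391 in Pkd2 knockout kidneys, and the proximal tubule markers move the same way with a wider span.

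Library by library, the summed value of the 34 genes was 1891 and 1861 in Pkd1 control kidneys, 1222 and 1485 in Pkd1 knockout kidneys, 2736 and 2891 in Pkd2 control kidneys and 2045 and 1391 in Pkd2 knockout kidneys. Each knockout library lay below both of its controls. The median member stood at 68.4% and 76.8% of its control mean in Pkd1 knockout replicates 1 and 2, and at 74.3% and 51.8% in Pkd2 knockout replicates 1 and 2. In the Pkd2 model, 33 of 34 members were lower in replicate 2 than in replicate 1.

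Markers of cell types changed in both directions. The 15 proximal tubule markers, such as Slc34a1 and Lrp2, summed to 3729 and 4121 in Pkd1 control kidneys and 1066 and 1478 in the knockouts, and to 7748 and 8324 against 4474 and 2238 in the Pkd2 model. Of them, 12 were called lower in the Pkd1 and 11 in the Pkd2 model, with medians of -1.66 and -1.37, more negative than those of the 34 genes, and the lowest of the 15 in any library was Slc13a3 at 7.33 in Pkd1 knockout replicate 1. The 5 thick ascending limb markers summed to 1051 and 841 against 286 and 463 in the Pkd1 model and to 4170 and 4151 against 956 and 801 in the Pkd2 model. The 5 macrophage markers were all called higher in both models, with sums from 29.1 to 34.4 in controls and 88.5 to 151 in knockouts. The 8 fat markers summed to 44.2 and 77.8 in Pkd2 control kidneys and 14.4 and 1.34 in the knockouts, with 4 of 8 called lower and Ucp1 and Cox8b at 0 in knockout replicate 2. They summed to 19.9 and 6.91 against 29.3 and 9.54 in the Pkd1 model, where none was called lower and 1 higher. The 5 adrenal cortex markers summed to 145 in Pkd2 control replicate 2 and at most 4.002 in every other library, with Cyp21a1 at 0 in both Pkd2 knockouts. Of 5 principal cell markers, 2 were called higher in the Pkd1 and 3 in the Pkd2 model, with the same counts for 5 fibroblast markers. Called lower were 3 and 2 of 5 intercalated cell markers, 3 and 2 of 4 podocyte markers and 2 and 3 of 4 distal convoluted tubule markers. The part of any of these cell types in the changes of the 34 genes was not tested.

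Other genes of the pathway, from lists of known members, went along. Of 31 further genes of mitochondrial fatty acid, branched-chain and ketone body oxidation, 11 were called lower and none higher in the Pkd1 model (median -0.56), and 18 lower and 1 higher in the Pkd2 model (median -0.88). Gcdh, glutaryl-CoA dehydrogenase, had -1.14 ± 0.17 in the Pkd1 model, Ivd, isovaleryl-CoA dehydrogenase, -1.01 ± 0.17, and Slc22a5, the plasma membrane carnitine carrier, -1.30 ± 0.26. In the Pkd2 model Ivd had -1.63 ± 0.17, Oxct1, which activates ketone bodies for use, -1.55 ± 0.21, and Acat1, the acetoacetyl-CoA thiolase, -1.24 ± 0.19. The 1 gene called higher there was Cpt1c, the brain form of the transferase, at 0.65 ± 0.18. Its values were near the floor, at 0.754 and 0.794 in Pkd2 control kidneys and 1.65 and 1.92 in the knockouts. Ivd, Gcdh, Pcca, Pccb, Mut and Oxct1 act on amino acids, propionate or ketone bodies rather than on fatty acid chains.

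Of 50 further peroxisome rows tested, 10 were called lower in the Pkd1 model (median -0.41) and 17 in the Pkd2 model (median -0.52), and none higher in either. Acox2, the branched-chain acyl-CoA oxidase, was at 16.0 and 9.60 in Pkd1 control kidneys and 1.077 and 3.89 in the knockouts (-2.07 ± 0.40). Pxmp2, a peroxisomal membrane channel, had -1.59 ± 0.32 and -1.72 ± 0.32, and Dao, the D-amino acid oxidase, -1.40 ± 0.30 and -1.23 ± 0.30, all 4 of them called.

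Of 18 regulators and known PPAR-alpha targets outside the family, none was called in the Pkd1 model (median -0.37), where Esrra had -1.0 ± 0.28 (limma, Benjamini-Hochberg adjusted p = 0.0559) and Fabp3 -1.35 ± 0.38 (0.0578). In the Pkd2 model 7 were called lower and none higher (median -0.37). These were the coactivator genes Ppargc1b (-1.45 ± 0.24) and Ppargc1a (-1.28 ± 0.23), the receptors Ppara (-1.25 ± 0.26), Pparg (-0.93 ± 0.21) and Esrra (-1.20 ± 0.28), the fatty acid binding protein gene Fabp3 (-2.16 ± 0.38) and the lipid droplet gene Plin5 (-0.94 ± 0.19). Fabp3, Pparg and Plin5 are also expressed in fat, 4 of whose 8 markers fell in the same comparison. Plin5 was low, at 1.51 and 2.03 in Pkd2 control kidneys and 0.645 and 0.254 in the knockouts. Of the 11 not called, Angptl4 was at 7.61 and 5.49 in Pkd2 control kidneys and 34.6 and 12.8 in the knockouts. Plin2 was at 21.4 and 27.6 against 36.2 and 36.0, and Ucp2 at 26.4 and 35.1 against 55.7 and 40.0. All of these lay above both controls. Rxra, Ppard and Cd36 lay below both, and the groups of the rest overlapped.

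The direct repeat that PPAR-alpha is known to bind was searched in the 29 RefSeq promoter windows, as 2 copies of AGGTCA 1 base apart on either strand. None of the 29 held it, beside 0.0481% of all genes, and none held the looser form with AGGNCA in each place, beside 0.451%. A single AGGTCA on either strand lay in the window of 7 of 29 members (24.1%, beside 18.1% of all genes): Cat, Acadm, Scp2, Echs1, Acadvl, Cpt1a and Phyh. A match is a description of the letters and the lack of one says nothing of binding elsewhere. In 6 of them it lies before the RefSeq start of the window. For Scp2 this is an internal start, since the gene on the minus strand begins at chr4:108144998 and the motif lies inside it. The 30 bases around the motif are shown for these 6, so that the bases beside it can be compared between genes. They are on the strand of the gene, with the motif in capitals (TGACCT where it lies on the opposite strand).
Cat (chr2:103485340-103485369, minus strand): tgtgactctcagAGGTCAgagaacaccagc
Acadm (chr3:153944864-153944893, minus strand): gTGACCTtcgggctccggtgacactgggca
Scp2 (chr4:108118639-108118668, minus strand): gtctaacacagtAGGTCAaaagaacccata
Echs1 (chr7:140116487-140116516, minus strand): accagcccgctcAGGTCAcgggtccacccc
Acadvl (chr11:70015498-70015527, minus strand): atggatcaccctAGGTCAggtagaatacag
Cpt1a (chr19:3323195-3323224, plus strand): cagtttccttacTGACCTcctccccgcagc
The bases on either side of the motif differ from gene to gene. Cat, Acadm, Echs1 and Acadvl hold the motif and were called lower in the Pkd2 model, while Cpt1a and Scp2 hold it and had no called change in kidney. Hadh and Acaa1b, called in both models, hold none in this window. Whether the motif bears on any change was not tested.

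Between the control groups, 8 of 34 genes were called higher at day 20 than at day 10, where 5.04% of all genes tested were, and none lower. The median was 0.52, beside -0.001 over all genes, and in 28 of 34 genes both day 20 controls lay above both day 10 controls (31.1% of all genes tested). The groups also differ in the floxed gene, and their summed Y-linked values were 155 and 10.4 at day 10 and 0.104 and 0.0221 at day 20, so age cannot be told apart from the floxed gene or sex, and these controls serve in the knockout comparisons too. Of the 8, 5 were peroxisomal oxidation genes: Phyh had 1.33 ± 0.24, Cat 1.292 ± 0.21, Hacl1 1.123 ± 0.26, Abcd3 0.99 ± 0.20 and Crot 0.76 ± 0.19. The others were Hadhb at 0.96 ± 0.21, Echs1 at 0.79 ± 0.21 and Pex5 at 0.72 ± 0.16, all with a limma Benjamini-Hochberg adjusted p of at most 0.0394. Cpt1a (0.09 ± 0.26), Cpt2 (0.14 ± 0.32), Slc25a20 (0.03 ± 0.24) and Hadh (0.14 ± 0.23) were at similar values in both control groups, with no call. On the total without mitochondrially encoded genes, which called 226 genes higher and 716 lower in all in place of 738 and 1063, none of the 8 was called. Leaving out day 10 control replicate 1 or 2 gave medians of 0.47 and 0.55. Without day 20 control replicate 1 or 2 the medians were 0.54 and 0.42.

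Outside the family, 9 of the 31 mitochondrial genes, 12 of the 50 peroxisome rows and 4 of the 18 regulators and targets were called higher in the day 20 controls, and none lower. Ppara was among them at 1.35 ± 0.26. The proximal tubule markers had a median of 0.74 there, with 1 of 15 called higher.

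In the cells, the 7 members that the table lists were all called lower with the Hoxb3os gapmer and none higher. The table holds only genes that the authors had called, and 55.6% of its genes were called lower and 44.4% higher here, so the count speaks for these 7 alone. The adjusted p-values in cells come from the same libraries that chose these genes. Passing was thus set beforehand, and the p-values add no separate support. Cpt1a was at 4994 and 5061 scaled reads with the control gapmer and 3903, 4076 and 4086 with the Hoxb3os gapmer, a fall of 0.32 on the log2 scale (SE 0.04, 1.25 times, limma, Benjamini-Hochberg adjusted p = 1.48e-07). Hadh was at 6153 and 6395 against 5513, 5518 and 5572 (-0.18 ± 0.04), and Slc25a20 at 1860.3 and 1815 against 1608, 1637 and 1627 (-0.18 ± 0.06). Under quantile scaling Slc25a20 was no longer called (-0.10, limma, Benjamini-Hochberg adjusted p = 0.0597). The groups did not overlap, and the replicates of each lay close together.

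**Figure D4:**
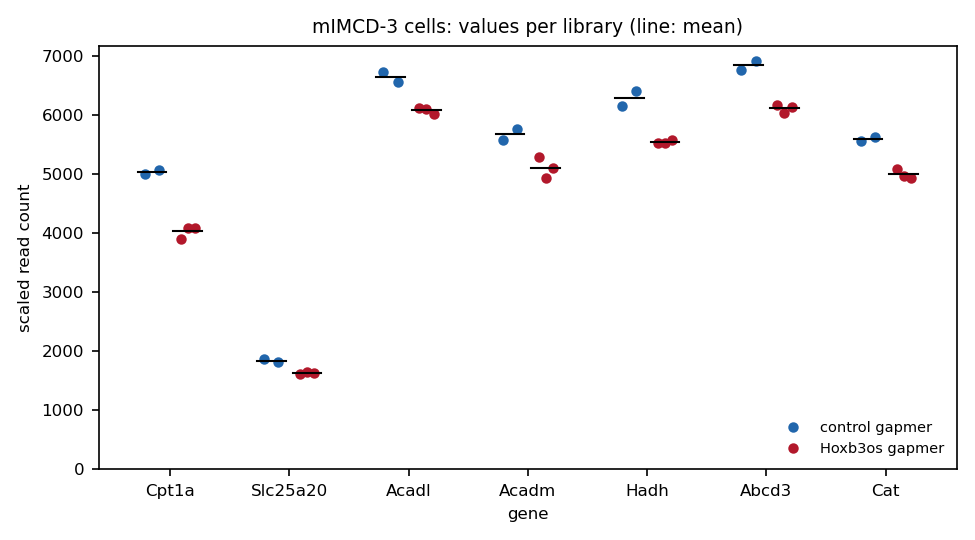
Scaled read count (y axis, from 0) of the 7 listed genes (x axis) in each mIMCD-3 library, with 2 control gapmer and 3 Hoxb3os gapmer libraries and the mean of each group as a line. Every Hoxb3os gapmer library lies below both controls, by the most for Cpt1a.

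The other 4 changed by less than Cpt1a. Abcd3 was at 6762 and 6905 against 6157, 6029 and 6131 (-0.16 ± 0.04), and Cat at 5558 and 5617 against 5085, 4967 and 4930 (-0.16 ± 0.04). Acadm was at 5579 and 5755 against 5282, 4922 and 5102 (-0.15 ± 0.04), and Acadl at 6720.3 and 6544 against 6110, 6091 and 6015 (-0.13 ± 0.04). The median of the 7 was -0.16, beside a signed median of -0.14 over all 2016 genes of the table. The latter mixes 1120 genes called lower and 895 called higher, so it does not give a typical size of change. Among listed genes outside the family, Ppargc1a had -0.59 ± 0.09, Pdk4, the kinase that restrains pyruvate oxidation, -0.61 ± 0.17, and Plin2 0.23 ± 0.05, and of 9 mitochondrial genes 7 were lower and 2 higher.

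In the authors' deposited table, where kidney fold changes are control minus knockout, 3 members had an adjusted p below 0.05 and were lower in Pkd1 knockout kidneys, beside 4.35% of the table's genes: Acaa1b (1.62), Hadh (1.118) and Decr2 (1.07). In the authors' deposited table for Pkd2, 5 were lower (Acadm, Hadh, Echs1, Etfa and Acaa1b), beside 4.58%. In the authors' deposited table for the cells, all 7 were lower, beside 55.6%.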

How the data were processed

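The members, lists and tests were chosen with earlier results of these data known. Samples were grouped by genotype and age, or by gapmer, per the labels. For kidneys, build mm10, edgeR, RSEM 1.2.22, STAR 2.4.2a, FastQC 0.11.2 and Cufflinks 2.2.1 are listed in the submitters' processing notes. For cells these list GRCm38/mm10, DESeq2 1.12.3, STAR 2.4.2a, Trimmomatic 0.32 and SAMtools 1.0. Not given in the sources used here are counting and strand settings.

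The deposited kidney values are a signal, estimated reads scaled by a factor per library, and the deposited cell values are a signal, reads divided by a size factor. Low values are whole multiples of 1 read: in the kidneys a tolerance of 0.02 reads made 93.4% to 96.2% of genes whole, and in the cells every gene. Reads of Pkd1 control replicate 1 are the least certain. The authors also deposited log2 fold changes, p-values raw and adjusted per the file headers, and a likelihood ratio score that was not used, and their cell table stops at an adjusted p of 0.0500.

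Since these are not counts, limma 3.58.1 (trend, R 4.3.3) was run on log2(value + 1), keeping kidney genes that reached 1 in 2 or more libraries, in 1 fit of 8 libraries (4 residual degrees of freedom, prior 4.77). The 5 cell libraries had their own fit (3 residual, prior 36.2). The scripts were tested on simulated data. Values in every library are given for members called in a knockout or cell comparison, at least for that comparison, and other list genes were named by smallest adjusted p. Some genes of these lists are not reported here. Exon lengths and positions come from GENCODE release M21, promoters from RefSeq (29 of 34 members matched). Protein sequences were not analysed here. Alternatives were a pseudocount of 0.1, no filter, quantile scaling, a total without mitochondrially encoded genes, DESeq2 1.42.0 and edgeR 4.0.16 on recovered reads, each model alone, a replicate block, a covariate for Y-linked genes, and leaving out each library.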

Additional observations from a re-analysis of the deposited data

How the results depend on the processing

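With 2 libraries a group, the counts of calls moved more than the fold changes. Of the 34 genes, 2 were called lower in the Pkd1 model: 0 without a filter, 1 on a total without mitochondrially encoded genes, 9 with DESeq2, 8 in a fit of that model alone, 12 with a covariate for Y-linked genes, and 0 to 2 when 1 library was left out. Genes called lower over the whole table were 5.48% at first and in these settings 1.47%, 2.58%, 8.11%, 6.42%, 9.10% and 0.765% to 2.88%. Acaa1b remained called in 10 and Hadh in 8 of 14 alternatives. For Pkd2 (13 called) these counts were 6, 0 and, alone, 2, with 7 under quantile scaling, 20 with the covariate and 0 to 24 when 1 library was left out, beside 2.84%, 2.01%, 3.47%, 7.77%, 12.7% and 1.291% to 15.6% of all genes (8.13% at first). The median was -0.33 on the total without mitochondrially encoded genes and -0.89 to -0.42 when 1 library was left out. Relative to the median of all genes, it ran from -0.88 to -0.43 for Pkd2 and from -0.63 to -0.33 for Pkd1 over all alternatives. At day 20 against day 10 (8 called), 5 were called without a filter, 5 under quantile scaling, 0 on the total without mitochondrially encoded genes, 16 with each model alone and 0 to 4 with 1 library left out, beside 2.03%, 4.86%, 1.54%, 10.1% and 1.07% to 1.76% of all genes, and the median with the covariate was 0.78. The median difference between models (0.16) was -0.13 on that total and -0.080 to 0.39 with 1 library left out. The cell median was -0.14 under quantile scaling and -0.18 to -0.15 with 1 library left out.

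Replicate numbers gave no sign of pairing: same-numbered deviations correlated at -0.38 (Pkd1), -0.05 (Pkd2) and about -0.10 (cells). With 2 libraries in a kidney group, crossed numbers give the same value with the sign turned. The check therefore cannot tell whether samples were paired in another way. With the replicate block 8 of the 34 were called lower in the Pkd2 model, beside 6.66% of all genes. Crossed pairs, chosen after seeing the data, left 2 in the Pkd1 model, beside 4.49% of all genes, a share near that of the members.

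Signs changed for members near 0, none of them called in the comparison concerned; the cause was not tested. In the Pkd1 model this was Slc25a20 with the covariate (-0.10), and with 1 library left out Crot (-0.16 to 0.30), Slc25a20 (-0.080 to 0.15), Acadl (-0.24 to 0.14), Abcd3 (-0.38 to 0.022), Cpt1a (-0.50 to 0.34), Ehhadh (-1.16 to 0.48), Acaa2 (-0.33 to 0.15) and Eci2 (-0.040 to 0.45). In the Pkd2 model it was Cpt1a (0.060), Decr1 (0.054) and Slc25a20 (0.051) on the total without mitochondrially encoded genes, Eci2 with edgeR (-0.013) and the covariate (-0.18), and with 1 library left out Eci2 (-0.22 to 0.22), Ehhadh (-0.013 to 0.75), Decr1 (-0.59 to 0.093) and Slc25a20 (-0.62 to 0.13). Between control groups it was Cpt1a under quantile scaling (-0.0091), Eci2 (0.21) and Pex19 (0.31) with the covariate, Cpt1a (-0.12), Hadh (-0.073), Cpt2 (-0.071), Slc25a20 (-0.18) and Eci1 (-0.077) on that total, and with 1 library left out Pex19 (-0.15 to 0.087), Slc25a20 (-0.086 to 0.14), Eci2 (-0.22 to 0.10) and Cpt2 (-0.095 to 0.37). The Ehhadh difference between models ran from -1.53 to 0.11. That total moved the median of all genes by 0.26 (Pkd2) and -0.19 (control groups). Where 1 library was left in a group, the fit takes its spread from the others. The kidney depth was at least 30.7 M reads.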
